A study of Mus musculus with 2 samples.

Results

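Chemokine receptors are the proteins with which leukocytes and microglia read gradients of chemokines, and 6 of them are described here: Ccr1, Ccr2, Ccrl2, Cx3cr1, Cxcr2 and Cxcr4. The members were chosen by gene symbol from a list drawn up with earlier results of these libraries known, and each is 1 of the 32589 features that both count matrices list. Their levels are therefore a description, read by library and by cell class. The mice were C57BL/6, and the groups received vehicle or, by oral gavage, corticosterone, which the study used to model depression with raised stress hormone. All cells came from enzyme-digested prefrontal cortex and had been sorted as CD45low CD11b+, the usual gate for microglia. Each group was 1 library; the dose, the duration, the number of mice and their sex are not given in the sources used here.

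Most chemokine receptors couple to inhibitory G proteins and steer cell movement. Cx3cr1 is the receptor of fractalkine, a chemokine of neurons, and is a hallmark of microglia. Ccr1 and Ccr2 respond to inflammatory CC chemokines, Ccr2 being the receptor with which classical monocytes leave the bone marrow. Cxcr2 draws neutrophils out of the marrow toward ligands such as Cxcl1 and Cxcl2, whereas Cxcr4, the receptor of Cxcl12, retains them there. Ccrl2 is an atypical receptor that binds chemerin without signalling as a chemokine receptor does.

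With 1 library per group no test was possible, treatment, library and any batch cannot be told apart, and 95% intervals cover counting error only. After filtering, the vehicle library held 10500 cells with a median of 3220.5 UMIs (molecular tags that count captured transcripts), and the corticosterone library 17883 cells with a median of 3961. The libraries shared 104 cell barcodes. Clusters were named from fixed markers, with every chemokine receptor left out of both the clustering and the markers. Microglia-like cells numbered 7918 in vehicle and 15268 in corticosterone, and the libraries lay apart: 7369 of the vehicle cells fell in cluster 1, while 7894 and 6443 of the corticosterone cells fell in clusters 0 and 2. All 11 microglia markers, P2ry12 and Tmem119 among them, had UMIs in these cells in both libraries. They also had UMIs in macrophage-like, neutrophil-like and monocyte-like cells, so this alone does not set microglia-like cells apart. All microglia-like clusters were named by their level of microglia markers. Macrophage-like cells, named by markers of macrophages at brain borders, numbered 1053 and 795, neutrophil-like cells 449 and 397, and monocyte-like cells 28 and 59. A cluster of 178 and 85 cells led by class II histocompatibility genes was left unnamed and is called class II-high. RNA of microglia was present in every class. Summed over P2ry12, Tmem119, Siglech and Sall1, 4 microglia markers, the level in neutrophil-like cells was 6200 CPM in vehicle and 2766 CPM in corticosterone, against 10571 and 7913 CPM in microglia-like cells. CPM, the usual depth-scaled count, sets a gene's UMIs against all UMIs summed over the cells of a class.

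In GRCm38, Ccr1 lies on chromosome 9 at 123962124 to 123968692 (minus strand) and Ccr2 at 124101950 to 124113557 (plus strand), within a cluster of receptor genes. Ccrl2 (111054486 to 111057519, minus strand) and Cx3cr1 (119901616 to 120069879, minus strand) are on the same chromosome. Cxcr2 (74153989 to 74161246, plus strand) and Cxcr4 (128588199 to 128592293, minus strand) are on chromosome 1. The 250 bases before the annotated start are shown for 3 members: Ccr1, whose level differed most between the libraries in microglia-like cells, Ccrl2, which varied among microglia-like subclusters, and Cxcr4, which was higher in corticosterone in neutrophil-like cells. The sequences are from RefSeq (GRCm38.p6), each written 5′ to 3′ on the gene's strand, with matches on either strand to an NF-kB motif (GGGA, any 4 bases, then CC) or a GC box (GGGCGG) in capitals. The Ccr1 window is chr9:123968693-123968942, that of Ccrl2 chr9:111057519-111057768, and that of Cxcr4 chr1:128592300-128592549, all on the minus strand.
Ccr1: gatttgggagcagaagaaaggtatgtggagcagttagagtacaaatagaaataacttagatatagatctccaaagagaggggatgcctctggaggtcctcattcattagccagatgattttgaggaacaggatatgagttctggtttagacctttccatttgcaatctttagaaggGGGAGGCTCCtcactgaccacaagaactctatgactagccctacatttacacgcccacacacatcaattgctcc
Ccrl2: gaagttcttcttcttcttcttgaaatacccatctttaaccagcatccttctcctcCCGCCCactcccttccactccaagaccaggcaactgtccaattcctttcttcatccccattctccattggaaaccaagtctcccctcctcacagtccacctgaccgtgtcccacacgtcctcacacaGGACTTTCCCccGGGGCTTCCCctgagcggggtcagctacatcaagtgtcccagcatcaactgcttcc
Cxcr4: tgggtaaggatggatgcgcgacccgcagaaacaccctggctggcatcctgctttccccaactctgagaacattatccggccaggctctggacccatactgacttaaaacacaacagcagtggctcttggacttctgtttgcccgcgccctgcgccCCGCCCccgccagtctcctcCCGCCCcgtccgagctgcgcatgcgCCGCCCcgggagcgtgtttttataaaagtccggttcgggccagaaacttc
The Ccr1 window held 1 match to the NF-kB motif and the Ccrl2 window 2, and 17.6% of 32851 RefSeq promoter windows of this length hold at least 1. The Ccrl2 window also held 1 GC box and the Cxcr4 window 3, against 32.7% of all windows with at least 1. RefSeq gives Ccrl2 3 starts, of which the farthest upstream is shown, and the windows of the other two held neither motif. Neither was present in the windows of Ccr2, Cx3cr1 and Cxcr2. Matches to ACANNNTGT (from the paired glucocorticoid receptor site), an interferon response motif (GAAA, any 2 bases, then GAAA), GAGGAAGT (a PU.1 site), TTGCGNAA (a C/EBP site) and TGANTCA (an AP-1 site) were sought on both strands and none was present in a window of any member. Of all windows 5.84%, 2.98%, 2.44%, 0.670% and 6.75% hold these motifs, in the same order. A match is a string of letters and not a measured site.

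Across the classes the members divided by cell type. Cx3cr1 and Ccrl2 were measured in every class, Ccr2 had its highest CPM in monocyte-like and class II-high cells, and Cxcr2 and Cxcr4 in neutrophil-like cells. Ccr1 was highest in neutrophil-like cells, and its level in microglia-like cells did not differ from that of erythroid cell-like barcodes beyond the intervals. Between the libraries, the greatest difference of a member was Ccr1 in microglia-like cells, where corticosterone was lower. Differences of at least 1 on the log2 scale were read as past a set size.

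**Figure D1:**
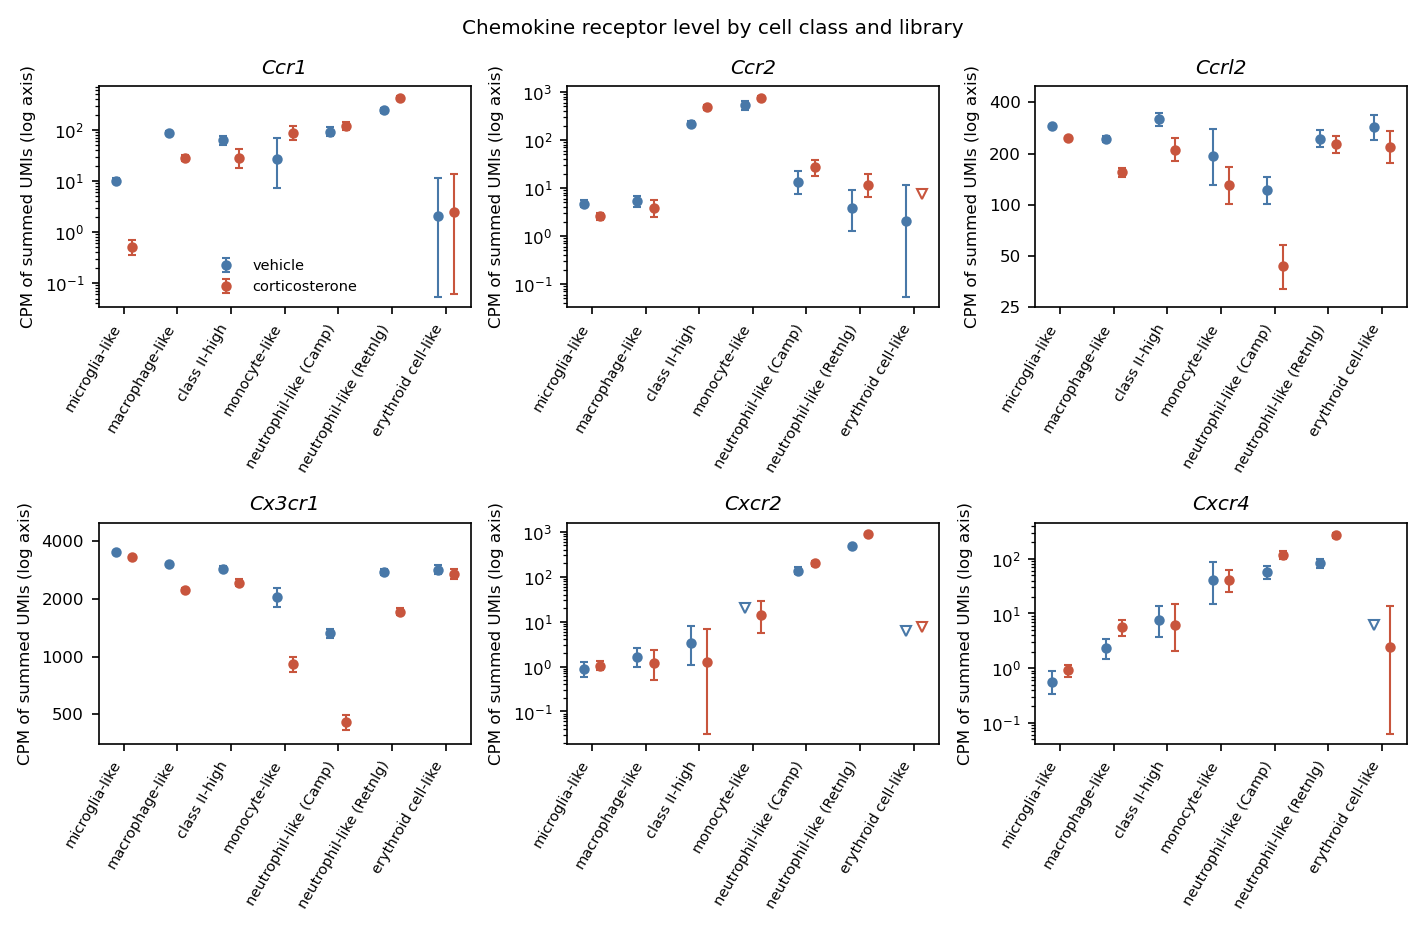
Level of each receptor in 7 cell classes (CPM of summed UMIs, log axis) in the vehicle and corticosterone libraries, with bars for the exact Poisson 95% interval and open triangles for the level that 3 counts would give where no UMI was seen. Ccr1 in microglia-like cells lies at 10.2 CPM for vehicle and 0.503 CPM for corticosterone, Ccr2 is highest in monocyte-like cells, and Cxcr2 and Cxcr4 are highest in neutrophil-like cells.

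Ccr1, a receptor for Ccl3, Ccl5 and other CC chemokines, had 330 UMIs in vehicle microglia-like cells, or 10.2 CPM (9.13 to 11.4). In corticosterone microglia-like cells it had 36 UMIs, or 0.503 CPM (0.352 to 0.697). Vehicle was the high library, and the log2 ratio of corticosterone over vehicle was -4.34 (-4.88 to -3.84). Among the members with a mean of at least 5 CPM in these cells (3 of 6: Ccr1, Ccrl2 and Cx3cr1), Ccr1 alone was past 1, and 4.29% of the 9678 genes at that level were past 1 in either direction. Ccr1 reached that mean only through vehicle, its corticosterone level being 0.503 CPM. A gene that passes in this way is nearly bound to be past 1, so the count is no support for its difference. The vehicle UMIs of Ccr1 lay in 208 cells, 143 of which had a single UMI, and the 10 cells with most UMIs held 18.8% of them. In corticosterone 34 cells had a Ccr1 UMI and no cell had more than 2. After thinning each cell to 1000 UMIs, 0.915% of vehicle microglia-like cells (67 of 7326, 0.709 to 1.16%) and 0.0527% of corticosterone cells (8 of 15180, 0.0228 to 0.104%) had a Ccr1 UMI. Without thinning the shares were 2.63% and 0.223%. Erythroid cell-like barcodes, which should lack the receptor, had 0 of 130 in vehicle, which allows up to 2.31%, and 0 of 80 in corticosterone, which allows up to 3.75%. The median depths were 3190.5 and 4004.5 UMIs in microglia-like cells and 2499 and 3787 UMIs in erythroid cell-like barcodes. The thinning left out 592 and 88 shallower microglia-like cells and 31 and 2 erythroid cell-like barcodes. The background share was thus not measured finely enough to set the low microglial shares apart from it. These barcodes also held RNA of microglia: the 4 microglia markers summed to 8406 CPM in vehicle and 6786 CPM in corticosterone. They therefore cannot separate background from RNA that microglia make.

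The order of the libraries for Ccr1 was the same in microglia-like cells without a UMI of a few markers of other myeloid classes. The share of microglia-like cells with a UMI of S100a8, S100a9, Mrc1, Pf4 or Ly6c2, markers of neutrophils, macrophages and monocytes, was 54.0% in vehicle and 34.6% in corticosterone. Among microglia-like cells without any of them, Ccr1 lay at 8.75 CPM (7.17 to 10.6) in 3643 vehicle cells. In 9988 such corticosterone cells it lay at 0.514 CPM (0.322 to 0.778). Such cells can still hold other RNA of those classes, and no class II gene was among the markers. Per 1000 UMIs of S100a8, vehicle microglia-like cells had 53.5 Ccr1 UMIs and neutrophil-like cells 3.18. Per 1000 UMIs of the macrophage markers Mrc1, Pf4, Cbr2 and F13a1, they had 147 Ccr1 UMIs and macrophage-like cells 33.7. The Retnlg-high cluster of neutrophil-like cells had 11.7 Ccr1 UMIs per 1000 of S100a8 in vehicle and 13.4 in corticosterone. In vehicle, microglia-like cells were above each of these ratios. They were below macrophage-like cells per 1000 UMIs of S100a8 (817) and below neutrophil-like cells per 1000 macrophage marker UMIs (266). In corticosterone microglia-like cells had 9.52 Ccr1 UMIs per 1000 of S100a8 and neutrophil-like cells 4.15, so microglia-like cells lay above all neutrophil-like cells and below the Retnlg-high cluster. Per 1000 macrophage marker UMIs they had 14.7 and macrophage-like cells 5.30. Corticosterone macrophage-like cells had 693 Ccr1 UMIs per 1000 of S100a8, and neutrophil-like cells 628 per 1000 macrophage marker UMIs. How much of the Ccr1 in microglia-like cells was RNA of other classes was not tested.

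In macrophage-like cells Ccr1 was 89.1 CPM in the vehicle library (83.6 to 94.9). The corticosterone value was 28.8 CPM (24.9 to 33.1), which gave a log2 ratio of -1.63 (-1.86 to -1.41). Of the 3 members at 5 CPM or more in that class it was the single one past 1, where 4.8% of 9746 genes were. The summed level of the 9 macrophage markers moved the other way, from 3950 CPM in vehicle to 7832 CPM in corticosterone, and that of the 11 microglia markers was 32565 CPM in vehicle and 21650 CPM in corticosterone. With estimated microglial UMIs subtracted, Ccr1 was 451 CPM in vehicle and 81.0 CPM in corticosterone, a log2 ratio of -2.47. The estimate took 82.1% of vehicle and 64.9% of corticosterone UMIs of this class as microglial. Of the Ccr1 UMIs, 880 of 971 and 194 of 196 were left, so these values rest largely on scaling to the smaller totals left. The part of the macrophage marker levels in the Ccr1 difference was not tested. In class II-high cells Ccr1 was 62.7 CPM (50.6 to 76.9) for vehicle and 28.8 CPM (18.3 to 43.2) for corticosterone.

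Neutrophil-like cells showed the opposite order of the libraries for Ccr1, vehicle at 177 CPM (161 to 195) and corticosterone at 287 CPM (266 to 310). The log2 ratio there was 0.70 (0.52 to 0.88), under the set size. It was 0.28 (0.01 to 0.55) in cells low in markers of the other myeloid classes, and 0.18 after subtraction of estimated microglial UMIs. In vehicle and corticosterone, Ccr1 was 245 and 427 CPM in the Retnlg-high cluster (log2 ratio 0.80). In the cluster led by Camp it was 93.2 and 120 CPM (0.36, -0.03 to 0.76), an interval that includes 0. Retnlg-high cells were 201 of 449 in vehicle and 274 of 397 in corticosterone. The part of this in the difference was not tested. In monocyte-like cells Ccr1 had 4 UMIs in vehicle and 44 in corticosterone, or 26.9 and 88.6 CPM, and no ratio was read because vehicle had fewer than 50 such cells. Thinned to 1000 UMIs, 23.6% of vehicle and 38.5% of corticosterone neutrophil-like cells had a Ccr1 UMI (46.1% and 71.5% without thinning). In vehicle the order of Ccr1 levels ran from neutrophil-like through macrophage-like, class II-high, monocyte-like and microglia-like cells to erythroid cell-like barcodes, and from class II-high cells down each neighbour's interval overlapped the next. In corticosterone monocyte-like cells came second, macrophage-like and class II-high cells could not be ordered, and microglia-like cells overlapped erythroid cell-like barcodes. Thus corticosterone was the lower library for Ccr1 in microglia-like, macrophage-like and class II-high cells. It was the higher one in neutrophil-like cells, by an amount that depended on the processing.

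**Figure D2:**
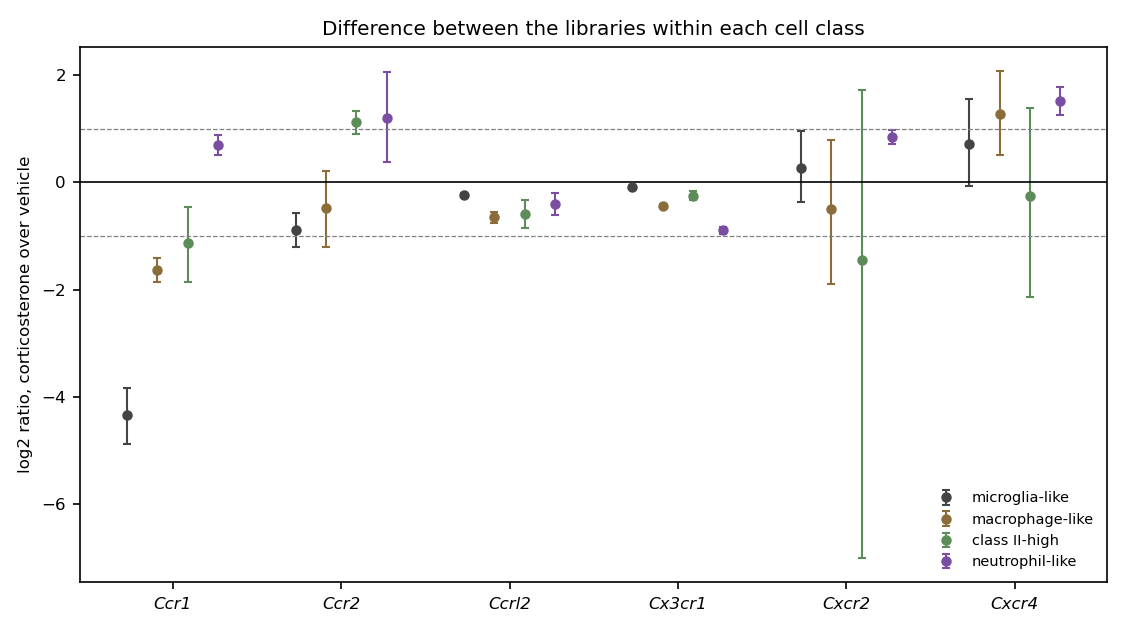
Log2 ratio of corticosterone over vehicle for each receptor in 4 cell classes, with bars for the conditional exact 95% interval and dashed lines at -1 and 1. The Ccr1 point of microglia-like cells lies at -4.34 and that of neutrophil-like cells at 0.70. All 4 classes lie below 0 for Ccrl2 and Cx3cr1, though the microglial Cx3cr1 ratio changes sign with other scalings (0.0096 and 0.028). The neutrophil-like Ccrl2 ratio also changes sign, to 0.24 as a mean over cells and 0.49 after subtraction of estimated microglial UMIs.

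Ccr1 sits in a run of receptor genes on chromosome 9, and its neighbours were examined after its value was known. Within microglia-like cells Ccr3, the eotaxin receptor, was 2.01 CPM in vehicle and 0.252 CPM in corticosterone, a log2 ratio of -3.00 (-3.84 to -2.23). Ccr1l1, the gene next to Ccr1, had 3 UMIs in vehicle and 0 in corticosterone, too few to place it. The upper bound of its log2 ratio was 0.13. Ccr2, which lies beyond Ccr3, differed less than Ccr1 and Ccr3. Of the genes outside the run, the log2 ratio was -0.37 for Fyco1, -0.41 for Lztfl1, -0.65 for 2010315B03Rik and -0.18 for Ppp2r3d. Xcr1, a receptor gene on the Ccr1 side, had 7 and 16 UMIs and a log2 ratio of 0.05 (-1.31 to 1.57), too few UMIs to place it.

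**Figure D3:**
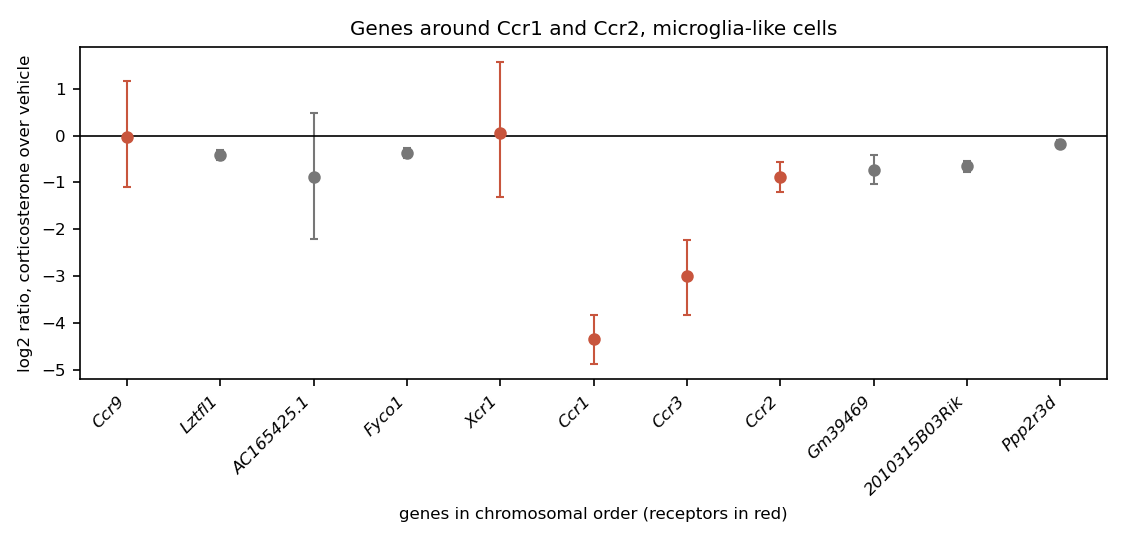
Log2 ratio of corticosterone over vehicle in microglia-like cells for 11 genes with at least 20 UMIs in the region around Ccr1 and Ccr2, in chromosomal order and not to scale, receptors in red, with conditional exact 95% intervals. Ccr1 (-4.34) and Ccr3 (-3.00) lie below all the other genes plotted, and Ccr2 lies at -0.89.

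Ccr2, the receptor of Ccl2, had 153 UMIs in vehicle microglia-like cells, or 4.73 CPM (4.01 to 5.54), and 183 UMIs in corticosterone, or 2.56 CPM (2.20 to 2.96). The libraries' intervals did not overlap and vehicle was the higher, with a log2 ratio of -0.89 (-1.20 to -0.57). The UMIs were spread over 136 and 156 cells, with at most 3 and 4 in a cell. After thinning, 0.450% of vehicle microglia-like cells and 0.277% of corticosterone cells had a Ccr2 UMI (1.72% and 1.02% without thinning), against 0 of 130 and 0 of 80 erythroid cell-like barcodes. These shares lie under the limits of 2.31% and 3.75% that those zeros allow, so Ccr2 of microglia-like cells could not be set apart from background at this depth. Those barcodes also held RNA of microglia, so they are not a background free of microglial transcripts. Of the 50-base words in Ccr2 transcripts, 1.91% also occur in another gene, and reads from such words could have been assigned to either gene or dropped.

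Monocyte-like cells had the highest Ccr2, 531 CPM (420 to 661) from 79 UMIs in vehicle and 743 CPM (669 to 823) from 369 UMIs in corticosterone. Among these cells 57.1% in vehicle and 84.7% in corticosterone had a Ccr2 UMI, at median depths of 3156.5 and 7375 UMIs. Thinned to 1000 UMIs, the shares were 47.4% (24.4 to 71.1%) and 52.5% (39.1 to 65.7%), which overlap. Class II-high cells came next, although no receptor had entered the clustering: vehicle had 220 CPM of Ccr2 (196 to 245) and corticosterone 477 CPM (431 to 528), for a log2 ratio of 1.12 (0.90 to 1.34). With Ccr1, that made 2 of the 5 members at 5 CPM or more past 1 in this class, where 12.9% of 9746 genes were. In class II-high cells the 4 microglia markers summed to 8660 CPM in vehicle and 5230 CPM in corticosterone. The part of this microglial RNA in the Ccr2 difference was not tested. The share of class II-high cells with a Ccr2 UMI at 1000 UMIs was 26.3% in vehicle and 28.0% in corticosterone, and the intervals, 19.6 to 33.9% and 18.7 to 39.1%, overlap. Thinned to 2000 UMIs it was 28.7% (21.1 to 37.3%) and 47.4% (35.8 to 59.2%), so the libraries lay further apart at that depth. Their median depths were 3649 and 8728 UMIs, and 42.1% and 70.6% had a Ccr2 UMI without thinning. Macrophage-like cells of vehicle had Ccr2 at 5.32 CPM and those of corticosterone at 3.82 CPM, with a log2 ratio of -0.48 whose interval (-1.21 to 0.21) includes 0. In neutrophil-like cells the 19 vehicle and 44 corticosterone UMIs of Ccr2 lay in 7 cells each, so the log2 ratio of 1.19 (0.39 to 2.05) rests on these cells, and it was -0.77 when each cell was classed by its own markers. The summed level of the 8 monocyte markers in this class was 3132 CPM in vehicle and 7816 CPM in corticosterone. Below class II-high cells, the intervals of neutrophil-like, macrophage-like and microglia-like cells overlapped in vehicle, whereas in corticosterone neutrophil-like cells lay above the other 2.

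Cx3cr1 was the member with most UMIs, 113565 in vehicle and 237462 in corticosterone microglia-like cells. Its level there was 3509 CPM in vehicle and 3319 CPM in corticosterone. The log2 ratio was -0.08 (-0.09 to -0.07) when scaled to total UMIs, and 0.0096 and 0.028 with edgeR's TMM and DESeq2's size factors, so the sign depends on the scaling. The median cell had 11 Cx3cr1 UMIs in vehicle and 13 in corticosterone. At 1000 UMIs per cell, 96.1% of vehicle and 94.7% of corticosterone microglia-like cells had a Cx3cr1 UMI (98.4% and 99.7% without thinning), but so had 86.9% and 90.0% of erythroid cell-like barcodes. Cx3cr1 overlaps 9 other annotated genes. The one with most UMIs on its own strand, Csrnp1, had 3181 and 6003, few beside those of Cx3cr1.

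The marker P2ry12 differed more than Cx3cr1 did. P2ry12, a purinergic receptor that marks homeostatic microglia, was 6119 CPM in vehicle and 3522 CPM in corticosterone microglia-like cells. Per 1000 UMIs of P2ry12, Tmem119, Siglech and Sall1, microglia-like cells had 332 Cx3cr1 UMIs in vehicle (330 to 334) and 419 in corticosterone (417 to 421). In vehicle the ratio was 339 (334 to 343) in macrophage-like, 341 in neutrophil-like, 333 in monocyte-like and 338 in erythroid cell-like barcodes. In corticosterone it was 425, 412, 491 and 399 in the same order, and 464 in class II-high cells. The monocyte-like (438 to 550) and class II-high (440 to 490) values of corticosterone lie above that of microglia-like cells. How much of the Cx3cr1 outside microglia-like cells was microglial RNA was not tested. Its levels there were 3021 CPM in vehicle and 2229 CPM in corticosterone for macrophage-like cells, 2115 and 1139 CPM for neutrophil-like cells, and 2041 and 912 CPM for monocyte-like cells. Microglia-like cells were highest in both libraries. In vehicle, class II-high and erythroid cell-like barcodes (2877 and 2837 CPM) could not be ordered, nor could neutrophil-like and monocyte-like cells. Microglial UMIs were also estimated, from the median over the 4 markers of a marker's CPM in the class over that in microglia-like cells, and subtracted. In neutrophil-like cells the estimate was 56.3% of UMIs in vehicle and 35.7% in corticosterone. The subtraction left 319 CPM of Cx3cr1 there in vehicle and a negative value, -70.3 CPM, in corticosterone. The estimate thus took out more Cx3cr1 than was counted in corticosterone neutrophil-like cells. In macrophage-like cells it left 786 CPM in vehicle and 217 CPM in corticosterone, a log2 ratio of -1.86 in place of -0.44.

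**Figure D4:**
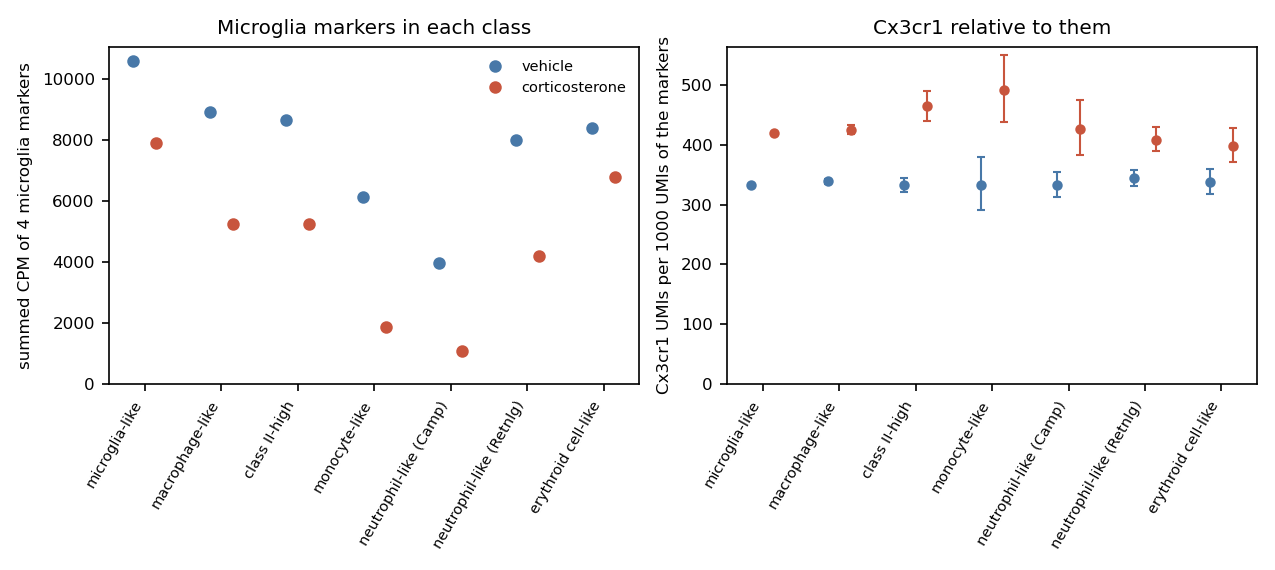
Left, summed CPM of P2ry12, Tmem119, Siglech and Sall1 in 7 cell classes of each library; right, Cx3cr1 UMIs per 1000 UMIs of these markers, with 95% intervals. The marker level varies from 1065 to 10571 CPM, while the Cx3cr1 ratio stays between 332 and 345 in vehicle and between 399 and 491 in corticosterone.

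Within microglia-like cells, subclusters were formed with each gene centred in its library and no receptor included. Cx3cr1 was lowest in subcluster 4, led by Lpl, Lgals3, Csf1, Cst7 and Itgax, genes known from activated and disease-associated microglia. It was 2500 CPM (2344 to 2664) in 79 vehicle cells and 2348 CPM (2238 to 2461) in 107 corticosterone cells. In subcluster 0, led by immediate-early genes such as Nr4a1 and Egr3, it was 3549 and 3380 CPM. Ccrl2 was highest in subcluster 4, where vehicle had 457 CPM (392 to 530) and corticosterone 432 CPM (385 to 482). It was lowest in subcluster 1, led by Cmss1, at 182 and 123 CPM. Cx3cr1 was 3457 and 3256 CPM in subcluster 1, so the receptors were not opposite throughout. The median depth of subcluster 1 cells was 0.75 times that of microglia-like cells of the same library. Both libraries thus had the same subcluster at the bottom for Cx3cr1 and at the top for Ccrl2. A group of 19 dividing cells was too small to place. The difference in Ccr1 was found in both large subclusters, with log2 ratios of -4.01 in subcluster 0 and -4.81 in subcluster 1. By the joint clusters, which the libraries filled so unequally, Ccr1 was 13.2 CPM (6 UMIs in 125 vehicle cells) and 0.568 CPM (25 UMIs in 7894 corticosterone cells) in cluster 0, and 12.3 and 0.483 CPM in cluster 2. In cluster 1 it had 305 UMIs in 7369 vehicle cells and 0 in 222 corticosterone cells, where 3 counts would be 3.51 CPM.

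**Figure D5:**
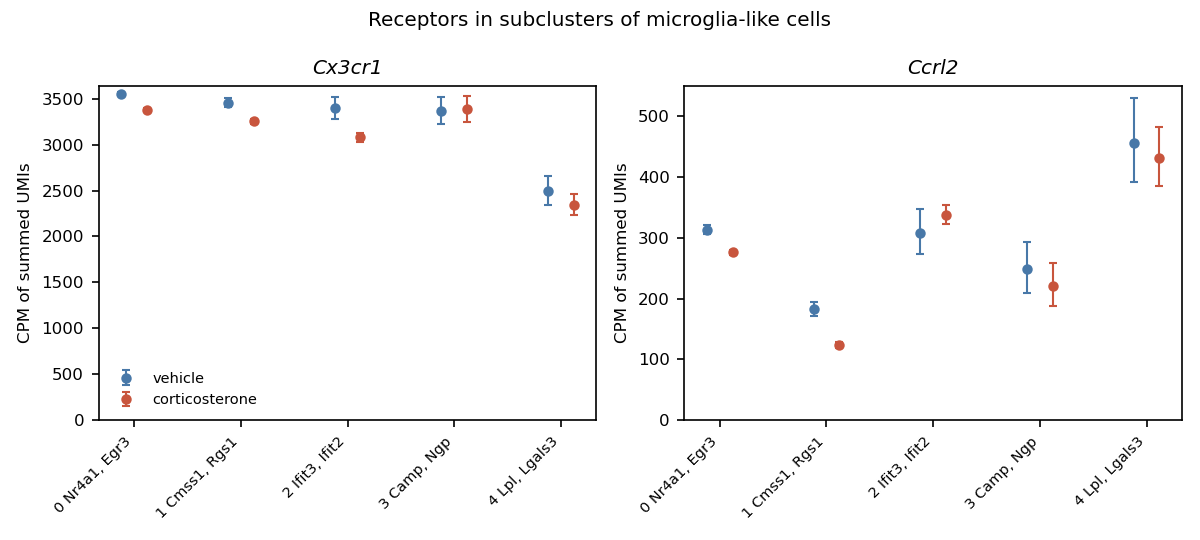
Cx3cr1 (left) and Ccrl2 (right) in 5 subclusters of microglia-like cells, named by 2 leading genes, as CPM of summed UMIs in each library with exact Poisson 95% intervals. In the Lpl- and Lgals3-led subcluster Cx3cr1 is lowest (2500 and 2348 CPM) and Ccrl2 highest (457 and 432 CPM).

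Over all microglia-like cells Ccrl2 stood at 290 CPM (284 to 296) for vehicle and 247 CPM (244 to 251) for corticosterone, and the log2 ratio was -0.23 (-0.26 to -0.19). It was the lower in corticosterone also in macrophage-like cells, at 245 against 156 CPM, and in class II-high cells, at 318 against 212 CPM. Subtraction of estimated microglial UMIs left 37.6 CPM in vehicle and a negative value, -12.2 CPM, in corticosterone macrophage-like cells. In the latter more Ccrl2 was taken out than was counted. Macrophage-like cells low in markers of the other myeloid classes had a log2 ratio of -1.01. At 1000 UMIs, 21.6% of vehicle and 18.1% of corticosterone microglia-like cells had a Ccrl2 UMI, beside 20.0% and 18.8% of erythroid cell-like barcodes. Without thinning the shares were 47.9% and 47.6% in microglia-like cells and 37.3% and 40.2% in erythroid cell-like barcodes. These shares are therefore not read as a difference between classes. Erythroid cell-like barcodes held RNA of microglia, so like shares do not show that Ccrl2 in microglia-like cells was background. How much of it was background in either class was not tested. The CPM of microglia-like, class II-high and erythroid cell-like barcodes overlapped in each library, and those of neutrophil-like and monocyte-like cells were lower than that of microglia-like cells. In neutrophil-like cells Ccrl2 was 190 CPM in vehicle and 144 CPM in corticosterone (log2 ratio -0.40). The ratio was 0.24 as a mean over cells and 0.49 after subtraction of the estimated microglial UMIs, so its sign depends on the processing. Of the neutrophil-like clusters, the Camp-led one had 122 and 43.9 CPM and the Retnlg-high one 245 and 227 CPM.

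Cxcr2, the neutrophil receptor for Cxcl1 and Cxcl2, was 323 CPM (300 to 347) in vehicle neutrophil-like cells and 582 CPM (552 to 614) in corticosterone. The log2 ratio was 0.85 (0.72 to 0.98). By maturity, it was 474 and 903 CPM in the cluster led by Slfn4, Retnlg and Slpi, genes of mature neutrophils, and 136 and 198 CPM in the cluster led by Camp, Ngp and Ltf, genes of granule-forming precursors. The mature cluster was 201 of 449 neutrophil-like cells in vehicle and 274 of 397 in corticosterone. Within it the neutrophil markers were higher too, at 43071 CPM for vehicle and 69513 CPM for corticosterone. Per 1000 UMIs of S100a8, S100a9 and Retnlg, the mature cluster had 11.9 Cxcr2 UMIs in vehicle (11.0 to 12.9) and 14.3 in corticosterone (13.5 to 15.2). Subtraction of microglial UMIs brought the log2 ratio of all neutrophil-like cells to 0.30. At 1000 UMIs, 37.1% of vehicle and 53.8% of corticosterone neutrophil-like cells had a Cxcr2 UMI (57.5% and 83.4% without thinning), against 0 of 130 and 0 of 80 erythroid cell-like barcodes. The log2 ratio passed 1 in 3 of 12 alternatives, at 1.03 with TMM, 1.02 with DESeq2's size factors and 1.05 as a mean over cells. In microglia-like cells Cxcr2 had 28 and 75 UMIs, or 0.865 and 1.05 CPM, and the interval of the log2 ratio (-0.37 to 0.96) includes 0. In monocyte-like cells it had 0 UMIs in vehicle, where 3 counts would be 20.1 CPM, and 7 UMIs in corticosterone, all in 1 cell.

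Cxcr4 showed the greatest difference of a member in neutrophil-like cells, with 71.0 CPM (60.6 to 82.7) from 165 UMIs in vehicle and 202 CPM (184 to 221) from 476 UMIs in corticosterone. Corticosterone was the high library, with a log2 ratio of 1.51 (1.25 to 1.77). In this class 2 of 6 members were past 1 (Cxcr4 and Ccr2), and 10.6% of 9573 genes were. The order of the libraries was the same in the mature cluster, at 82.6 against 272 CPM, and in the Camp-led cluster, at 56.7 against 119 CPM. After thinning, 9.55% of vehicle neutrophil-like cells (34 of 356, 6.70 to 13.1%) and 25.9% of corticosterone cells (101 of 390, 21.6 to 30.5%) had a Cxcr4 UMI, against 0 of 130 and 0 of 80 erythroid cell-like barcodes. Without thinning the shares were 24.5% and 61.2%, at median depths of 2740 and 3724 UMIs. Subtraction of microglial UMIs left a log2 ratio of 0.96, and cells low in markers of the other myeloid classes gave 0.89, both under the set size. In macrophage-like cells Cxcr4 had 25 UMIs in vehicle and 38 in corticosterone, or 2.30 and 5.58 CPM, a log2 ratio of 1.28 (0.52 to 2.07), under the level of 5 CPM. Subtraction of estimated microglial UMIs brought it to 0.47. No order can be read from it, since 0.390% and 0.387% of these cells had a Cxcr4 UMI after thinning (2.09% and 3.77% without). In monocyte-like cells it was 40.3 CPM in each library, from 6 and 20 UMIs. In microglia-like cells it had 18 and 65 UMIs, or 0.556 and 0.908 CPM, and the interval of the log2 ratio (-0.06 to 1.55) includes 0.

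The rest of the pathway was read from fixed lists in microglia-like cells, among genes with a mean of at least 5 CPM. Over all 9678 genes at that level, 2.24% were higher and 2.05% lower in corticosterone by at least 1, and the median log2 ratio was -0.01. No count over the list of other chemoattractant receptors is given. Those higher by that size were C5ar1, the complement C5a receptor (159 and 433 CPM, log2 ratio 1.45), and the chemoattractant receptor Gpr35 (10.3 and 20.8 CPM, log2 ratio 1.01). The chemerin receptor Cmklr1 (121 and 217 CPM, log2 ratio 0.84) and the second C5a receptor C5ar2 (51.2 and 61.1 CPM, log2 ratio 0.26) were under the set size. Of 20 ligands of the members, 10 were at that level, with a median log2 ratio of 0.01. Cxcl2, a Cxcr2 ligand, was higher in corticosterone (13.2 and 47.5 CPM, log2 ratio 1.84). The Ccr1 ligands Ccl9 (137 and 34.9 CPM, log2 ratio -1.97) and Ccl6 (140 and 62.0 CPM, log2 ratio -1.18) were lower. Ccl2, the Ccr2 ligand, was 1560 CPM in vehicle and 2838 CPM in corticosterone, a log2 ratio of 0.86, under the set size, as were Ccl5 (4.26 and 7.97 CPM) and Ccl3 (3583 and 3199 CPM), both ligands of Ccr1. Of 30 signalling genes in the files, 26 were at that level, 0 were higher and 1, Elmo1, was lower by at least 1 (333 and 117 CPM, log2 ratio -1.51). Elmo1 is known to act with Dock2 in activating Rac downstream of chemokine receptors. The next lowest were Rgs2 (log2 ratio -0.74) and Rgs10 (-0.71), regulators that end G-protein signals, and the highest were Rgs19 (0.31), Plcb2 (0.31) and the receptor kinase Grk2 (0.29).

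The genes whose levels ran most like each member were found over 13 points. These were 7 classes in the libraries where a class held at least 50 cells, and they share libraries, microglial RNA and sequencing depth. Among them was an unnamed cluster of 674 vehicle and 1172 corticosterone barcodes with few UMIs (medians 1103 and 1256). The figures leave this cluster out. For Ccr1 the genes most alike were Cfp, which encodes properdin, Klf2 and Rgs18, with Pearson r from 0.90 to 0.94. For Ccr2 they were Apobec1, Bloc1s2 and S100a4 (0.87 to 0.90), and for Ccrl2 the early-response genes Junb and Btg2 and the proteasome inhibitor gene Psmf1 (0.91 to 0.94). Cx3cr1 ran most like Cxxc5, Marcks and Egr1 (0.98 to 0.99). Cxcr2 ran most like Rflnb, Fcnb and Retnlg (0.98 to 0.99), of which Fcnb and Retnlg are known from neutrophils, and Cxcr4 most like Rasgrp4, Gpi1 and Pirb (0.96 to 0.99).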

How the data were processed

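The authors deposited, for each library, a matrix of raw UMI counts per gene and barcode; whole values and totals that differed between cells showed that they were not normalised. Per the submitters' processing notes, bcl2fastq 2.19 and the build GRCm38 were used; the aligner, the counting program and the rule that called cells are not given in the sources used here. Per the labels' protocols, libraries were made with a Singleron GEXSCOPE kit. Each deposited file was given the group of the sample record that lists it, since file names use other words than the labels.

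Cells were kept with at least 500 UMIs, 300 genes and at most 20% mitochondrial UMIs, leaving 10500 of 10555 and 17883 of 18113 barcodes. Scrublet called 0 doublets in each library, a call treated as failed, and all cells stayed in; an alternative dropped the 6% with the highest scores. Both libraries were clustered together with scanpy 1.11.5 (2000 variable genes without chemokine receptors, 30 components, 15 neighbours, Leiden resolution 0.5). Naming a cluster took at least 3 markers of 1 class, each seen in 10% or more of the cluster and 2 times above the remaining cells; microglia-like clusters could also be named by their microglia marker level. A cluster led by class II genes was kept unnamed by a rule set after the clusters were seen. Counts were summed by class and library and scaled to CPM. Intervals are exact Poisson, exact binomial (Clopper-Pearson) for shares, and conditional exact binomial for ratios, at the 95% level. Ratios were read where both libraries had at least 50 cells, and the interval of the ratio was run on simulated Poisson counts. Those draws held counting error alone, the error the interval is built for, so they say nothing of variation between cells or libraries. Where a gene had 0 UMIs, 3 counts set the limit.

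The members and the gene lists were chosen with earlier results of these data known. Named genes were the members, the top 3 and bottom 3 genes of each list by log2 ratio in microglia-like cells at 5 CPM or more, and the 3 genes most like each member; the neighbours of Ccr1 and Ccr2 were chosen after values were seen. Alternatives covered cell filters, scaling (edgeR 4.0.16, DESeq2 1.42.0, used for scaling factors only), clustering, doublet scores, marker-free cells and thinning. Gene positions are from GENCODE vM21 and promoters from RefSeq. 1 item is not reported here.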

Additional observations from a re-analysis of the deposited data

Results flagged for a closer look

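Ccr1 differed in direction between classes: its log2 ratio of corticosterone over vehicle was 0.70 in neutrophil-like cells and -4.34 in microglia-like cells. The same held against macrophage-like cells, with 0.70 and -1.63. Ccr2 likewise had a log2 ratio of 1.19 in neutrophil-like cells and -0.89 in microglia-like cells, the former resting on 7 cells in each library. None of these differences between classes was tested, since each group was 1 library. The summed level of 4 microglia markers was 6200 CPM in vehicle and 2766 CPM in corticosterone neutrophil-like cells, against 10571 and 7913 CPM in microglia-like cells, and its part in these differences was not tested beyond the subtraction of microglial UMIs, after which Ccr1 had a log2 ratio of 0.18 in neutrophil-like cells and -2.47 in macrophage-like cells.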

How the results depend on the processing

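No paired analysis was possible because each group had 1 library, and no library could be left out. Of 84 alternative values for the members in microglia-like cells, 74 stayed within the counting interval and 10 moved; for macrophage-like cells 60 of 71 stayed and 11 moved, and for neutrophil-like cells 50 of 71 stayed, 20 moved and 1 reversed. The log2 ratio of Ccr1 ran from -4.38 to -3.94 over its 14 alternatives and was past 1 in all of them. That of Ccr2 was -1.25 as a mean over cells and -1.45 when cells were classed by their own markers, and with -1.13 in cells low in markers of other myeloid classes it passed 1 in 3 of 14 alternatives. That of Ccrl2 was -0.14 with TMM, -0.12 with DESeq2's size factors and -0.27 without the interferon-led cluster, an alternative chosen after seeing the data. That of Cx3cr1 was -0.048 as a mean over cells and changed sign with TMM (0.0096) and DESeq2 (0.028). In cells low in those markers, Cxcr2 was 1.72 and Cxcr4 1.65, from 4 vehicle UMIs each. In neutrophil-like cells Ccr2 turned to -0.77 when cells were classed by their own markers; the cause of these shifts was not tested. Without a filter on low values, 6632 of 21101 genes were past 1 in microglia-like cells (2853 higher, 3779 lower), against 205 of 6603 at 20 CPM or more (119 higher, 86 lower). Relative to total scaling, DESeq2's factors moved all log2 ratios by 0.11 in microglia-like cells, and TMM by 0.18 in neutrophil-like cells, so values above are relative to total UMIs. Subtraction of microglial UMIs and the alternatives that left out clusters were chosen after seeing the data. Depth limits Cxcr2 and Cxcr4 in microglia-like cells, each with under 100 UMIs in a library. Ccr1 had 330 UMIs there in vehicle but 36 in corticosterone, so depth limits its corticosterone level too.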

Other observations

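Other chemoattractant receptors with few UMIs in microglia-like cells, outside the level set for the lists, are given here as values. Ackr3, the scavenger receptor of Cxcl12, had 185 UMIs in each library, or 5.72 CPM in vehicle and 2.59 CPM in corticosterone. Fpr2, a formyl peptide receptor, had 31 UMIs in vehicle and 17 in corticosterone, or 0.958 and 0.238 CPM. Ccr6 lay at 3.52 and 2.05 CPM in vehicle and corticosterone, and Cxcr3 at 3.40 and 2.95 CPM. These genes were picked after their values were seen. In the subcluster of dividing microglia-like cells, led by Mki67 and Top2a, Ccr1 had 10 UMIs in 16 vehicle cells, or 61.6 CPM (29.5 to 113), and corticosterone had 3 such cells with 0 Ccr1 UMIs. That subcluster also carried 8 macrophage markers among those used to name classes, and the part of macrophage RNA in this value was not tested.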
